A study of Mus musculus with 28 samples.

Results

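Co-inhibitory receptors restrain T cells once they have been activated, and 8 genes of this class were followed across 28 RNA libraries: Lag3, Pdcd1, Ctla4, Tigit, Havcr2, Cd160, Cd200 and Btla. They were taken by gene symbol from a list drawn up with earlier results of these data known, and are 8 of the 25124 genes in the deposited table. All 8 passed the filter on low values, among 12182 genes tested. Havcr2 passed it mainly through the treated groups, since it reached 1 TPM in 6 of 6 SPF aCD3 and 4 of 6 GF aCD3 libraries against 2 of 6 SPF isotype and 2 of 10 GF isotype libraries. TPM is a level scaled for the length of the gene and the size of the library. In mm10 the rows span chr6:124904359-124911705 (Lag3, minus strand), chr1:94038305-94052553 (Pdcd1, minus), chr1:60909025-60915832 (Ctla4, plus), chr16:43648861-43664184 (Tigit, minus), chr11:46454931-46481254 (Havcr2, plus), chr3:96798763-96814521 (Cd160, minus), chr16:45382135-45409053 (Cd200, minus) and chr16:45224337-45252895 (Btla, plus), each from the gene's first to its last base with exons and introns.

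The RNA came from T-bet-ZsGreen mice, whose fluorescent reporter follows the transcription factor T-bet. CD4+ T cells were taken by flow sorting (live, CD45+, CD90.2+, TCRb+) out of the lamina propria of the small intestine, the connective layer under the gut lining. All 4 groups carried this reporter. Specific-pathogen-free (SPF) mice, which have a gut flora, received isotype control antibody (n = 6, 3 female and 3 male) or antibody against CD3 (aCD3, n = 6, 3 female and 3 male), which engages the T cell receptor complex. Germ-free (GF) mice, which lack a flora, received isotype (n = 10, 5 female and 5 male) or aCD3 (n = 6, 1 female and 5 male). F and M in a library's name stand for its sex. The labels used here give no age, dose or time after injection, and do not say whether each library is 1 mouse, so the tests measure the spread between libraries.

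Reads in genes numbered 6765529 to 17860611 per library. Summed TPM of 9 CD4 T cell markers was 1671 to 2248 across the 4 groups, with Cd4 means of 206.3 to 242.8 TPM and CD8 marker sums (Cd8a and Cd8b1) of 1.25 to 23.8 TPM in 27 libraries. GF isotype M4 stood apart with a CD8 sum of 61.2 TPM, against 1.25 to 8.54 TPM in the other 9 of its group; its Lag3 level was 8.59 TPM, inside their range. Libraries within GF aCD3 stood apart from each other. Replication-dependent histone genes, which are transcribed in dividing cells, took 23.4%, 23.1% and 25.97% of TPM in GF aCD3 M1, M2 and M5 but 5.39%, 7.46% and 6.43% in F1, M3 and M4. The share was 3.79 to 9.24% in the isotype groups and 23.8 to 26.8% in SPF aCD3. In SPF isotype F3 the ribosomal precursor Rn45s took 22.9% of TPM, against 11.4 to 18.1% in the other 27 libraries. The library names in the file header end in an S number, which is 1 to 12 for SPF and 25 to 54 for GF libraries, so flora and S number cannot be told apart. The header does not say what this number stands for.

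As background, several of these receptors come to the T cell surface after the T cell receptor has been engaged, and most bind a ligand on a neighbouring cell. LAG-3 binds MHC class II. CTLA-4 competes with the stimulatory receptor CD28 for CD80 and CD86, and PD-1, the product of Pdcd1, binds PD-L1 and PD-L2. TIGIT competes with the stimulatory receptor CD226 for the poliovirus receptor, TIM-3 (Havcr2) binds galectin-9 among other ligands, and BTLA and CD160 share the ligand HVEM. CD200 is itself a ligand, for the inhibitory receptor CD200R. In the gut, regulatory and interleukin-10-producing CD4 T cells are known for carrying several of them.

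Promoter sequence from RefSeq (GRCm38.p6, 250 bases before to 50 after a gene's start) was at hand for 7 of the 8 genes, with Lag3 unmatched. The following 4 are shown because their genes include both directions of change in SPF mice on deposited TPM. Havcr2 and Tigit were higher after aCD3, and Cd160 and Btla lower. For Btla the change was not called under other scalings, given below. Capitals mark the letters TGANTCA (AP-1), TTCNNNGAA (STAT) and TGTGGT (Runx) on either strand, so that Runx also appears as ACCACA.
Havcr2, chr11:46454681-46454980, plus strand: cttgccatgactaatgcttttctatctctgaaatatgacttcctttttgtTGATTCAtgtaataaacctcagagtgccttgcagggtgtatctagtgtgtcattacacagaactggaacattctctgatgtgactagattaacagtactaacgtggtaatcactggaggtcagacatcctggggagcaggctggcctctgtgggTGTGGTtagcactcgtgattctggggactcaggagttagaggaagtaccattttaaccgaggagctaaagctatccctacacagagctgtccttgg
Tigit, chr16:43664135-43664434, minus strand: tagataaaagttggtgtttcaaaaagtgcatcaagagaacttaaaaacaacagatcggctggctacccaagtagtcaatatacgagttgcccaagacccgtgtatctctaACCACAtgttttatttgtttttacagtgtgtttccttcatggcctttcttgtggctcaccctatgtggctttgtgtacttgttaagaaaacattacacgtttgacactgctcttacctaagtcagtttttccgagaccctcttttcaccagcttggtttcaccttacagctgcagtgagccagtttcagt
Cd160, chr3:96814472-96814771, minus strand: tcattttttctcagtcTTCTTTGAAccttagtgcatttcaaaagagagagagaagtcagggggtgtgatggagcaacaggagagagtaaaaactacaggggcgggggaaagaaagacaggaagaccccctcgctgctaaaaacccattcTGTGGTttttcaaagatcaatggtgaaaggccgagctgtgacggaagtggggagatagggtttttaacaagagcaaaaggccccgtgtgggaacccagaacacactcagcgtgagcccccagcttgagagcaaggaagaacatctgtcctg
Btla, chr16:45224087-45224386, plus strand: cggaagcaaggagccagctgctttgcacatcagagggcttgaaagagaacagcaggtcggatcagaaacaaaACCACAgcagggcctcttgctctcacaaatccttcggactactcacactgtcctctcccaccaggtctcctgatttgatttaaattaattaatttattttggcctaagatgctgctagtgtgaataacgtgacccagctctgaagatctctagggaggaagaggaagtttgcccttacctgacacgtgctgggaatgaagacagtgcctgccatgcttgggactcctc
Runx letters stood in 5 of the 8 windows read for these genes (Cd160 has 2 windows, both with them), all 4 shown among them, and in 16.8% of 32851 RefSeq promoters. The Ctla4, Pdcd1 and Cd200 windows held none. AP-1 letters stood in the Havcr2 window and STAT letters in the Cd160 window, against 7.81% and 8.30% of all promoters. The shorter NFAT core GGAAA stood in 4 of the 8 windows and in 61.3% of all promoters. The letters TGACGTCA (CRE) and AGGTGTGA (T-box) stood in 0 of 8, and in 1.79% and 1.28% of all promoters. Genes of both directions shared the Runx letters, and a match is a description of the sequence only.

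In the resting state of SPF mice, Ctla4 was the most abundant transcript of the 8 per genomic length. It stood at 517.9 ± 111 TPM (SD, n = 6) in SPF isotype libraries and made up 78.9% ± 4.37 of the summed TPM of the 8 genes. Cd160 (48.99 ± 8.39 TPM) and Tigit (45.4 ± 3.64 TPM) came next and overlapped. Lag3 (13.5 ± 3.35 TPM), Btla (13.0 ± 1.51 TPM) and Pdcd1 (9.67 ± 2.23 TPM) overlapped each other below them. Cd200 (2.03 ± 0.414 TPM) and Havcr2 (0.892 ± 0.310 TPM) were lowest, and the lowest Havcr2 value rested on 19 reads. Because the deposited lengths include introns, the order was also read per kilobase of exon. There Tigit (110.9 ± 6.77 reads per kilobase of exon, scaled to equal library size) stood above Cd160 (43.1 ± 9.23), and Btla (16.0 ± 1.55) above Lag3 (6.99 ± 2.13).

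**Figure D1:**
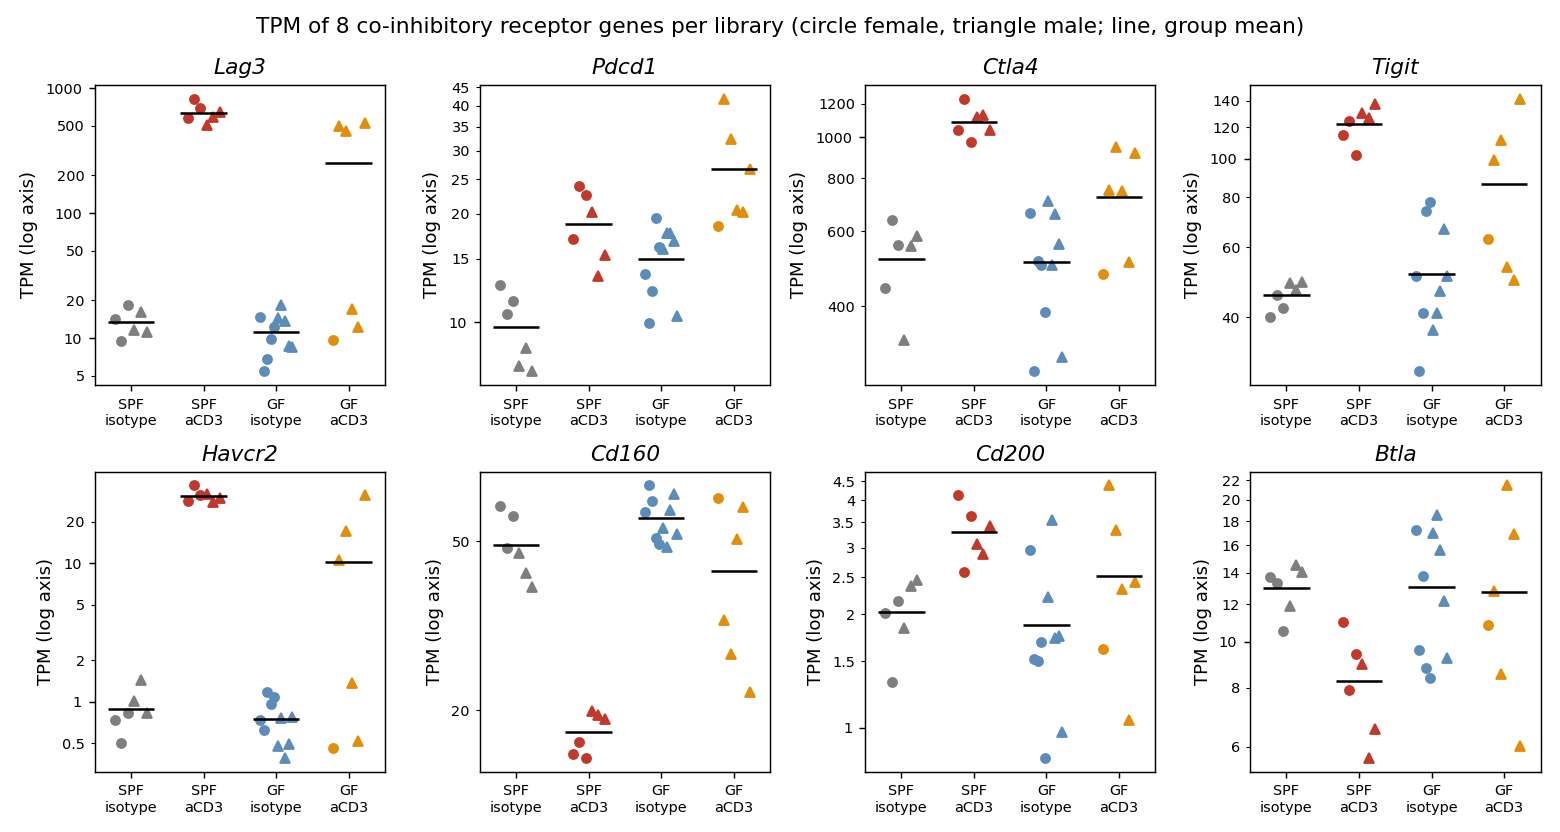
TPM (log axis) of each of the 8 genes in the 28 libraries by group, with circles for female and triangles for male libraries and a line at the group mean. All 6 SPF aCD3 libraries lie above all 6 SPF isotype libraries for Lag3, Havcr2, Tigit, Ctla4, Pdcd1 and Cd200 and below them for Cd160, while GF aCD3 libraries spread over both levels for Lag3 and Havcr2.

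The first comparison asks what engaging the T cell receptor does to these genes in mice with a flora. In SPF mice 6 of the 8 genes rose after aCD3 and 2 fell, at a limma adjusted p under 0.05. Of all 12182 genes tested, 64.8% passed this test on deposited TPM, 14.2% higher and 50.7% lower. By the median of ratios, a scaling described below, 3744 of 12140 were higher and 3539 lower. The downward majority thus depended on the scaling. Lag3 had the highest log2 fold change of all genes tested and Havcr2 ranked 7. Every SPF aCD3 library lay above every SPF isotype library for the 6 genes that rose, which was the case for 8.57% of all genes. Cd160 lay below in all 6 libraries, and 33.4% of all genes were lower without overlap.

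Lag3, whose product binds MHC class II, ran from 9.50 to 18.5 TPM (median 12.9) in SPF isotype libraries and from 505.0 to 825 TPM (median 613) in SPF aCD3 libraries. The groups were far apart, with 100 to 261 Lag3 reads per library in the first and 6793 to 11913 in the second. The mean rose 47.1-fold, and the log2 fold change on the log2(TPM + 1) scale was 5.47 (SE 0.74, adjusted p = 3.94e-06). With this rise Lag3 went from 2.12% ± 0.569 to 32.9% ± 3.70 of the summed TPM of the 8 genes, second to Ctla4 at 56.6% ± 3.12. Per kilobase of exon, Lag3 (422.0 ± 66.2) and Tigit (389.8 ± 37.6) overlapped in SPF aCD3, below Ctla4 (605.8 ± 41.7).

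Havcr2, the gene of TIM-3, ran from 0.504 to 1.43 TPM (median 0.827) in SPF isotype and from 27.6 to 36.5 TPM (median 30.2) in SPF aCD3. Its mean rose 34.4-fold, with a log2 fold change of 4.08 (SE 0.51, adjusted p = 1.72e-06). The fold on the log2(TPM + 1) scale understates the change of a gene this low, and it ran from 2.60 to 5.56 over the alternatives. Havcr2 thus passed from the lowest of the 8 to a level above Pdcd1, Cd160, Btla and Cd200 in every SPF aCD3 library.

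Among the receptors of B7-family ligands, Ctla4 ran from 333 to 638 TPM (median 556) in SPF isotype and from 974 to 1233 TPM (median 1078) in SPF aCD3. It rose 2.10-fold (log2 fold change 1.10, SE 0.21, adjusted p = 0.000102) and stayed the most abundant of the 8. Pdcd1 ran from 7.30 to 12.7 TPM (median 9.50) and from 13.5 to 23.9 TPM (median 18.7), a 1.94-fold rise (0.89, SE 0.19, adjusted p = 0.000331). For both genes the lowest treated library lay above the highest control, though for Pdcd1 the gap was under 1 TPM.

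Tigit, which competes with Cd226, ran from 40.0 to 49.1 TPM (median 46.2) in SPF isotype and from 102.0 to 137 TPM (median 126) in SPF aCD3. It rose 2.70-fold (log2 fold change 1.41, SE 0.23, adjusted p = 1.51e-05), and had the tightest spread of the 8 among the SPF isotype libraries, with a coefficient of variation of 8.02%. Cd200, the ligand of CD200R, ran from 1.32 to 2.46 TPM (median 2.09) and from 2.59 to 4.14 TPM (median 3.24). Its 1.62-fold rise (log2 fold change 0.51, SE 0.20, adjusted p = 0.0325) was the smallest of the 6 and rested on 51 to 230 reads per library. That call was lost without SPF aCD3 F1 or F3 or SPF isotype F2 or M1 (adjusted p 0.0621 to 0.0795), and without the filter on low values (adjusted p = 0.0526).

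The receptors that share the ligand HVEM went the other way on deposited TPM, but the call of Btla was lost under other scalings, as given below. Cd160 ran from 39.1 to 60.4 TPM (median 47.6) in SPF isotype and from 15.4 to 20.0 TPM (median 18.0) in SPF aCD3. It was 2.75-fold lower after aCD3 (log2 fold change -1.40, SE 0.18, adjusted p = 2.81e-06). Btla ran from 10.5 to 14.5 TPM (median 13.5) and from 5.67 to 11.03 TPM (median 8.43), a mean 1.58-fold lower (log2 fold change -0.62, SE 0.23, adjusted p = 0.0218). The groups overlapped for Btla in a single library, SPF aCD3 F1 at 11.03 TPM. By log2 fold change Btla ranked 3714 from the lowest of 12182 genes.

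The median log2 fold change over all genes was -0.35 on deposited TPM, and 0.99 over the 8 genes. Scaling by the median of ratios, which sets the typical gene near 0, moved the median of all genes to -0.003 and the split of its calls from 21.9% higher to 51.4% higher. The 6 rises and the fall of Cd160 kept their calls and direction. Btla did not: its log2 fold change was -0.24 (adjusted p = 0.334) by the median of ratios and -0.26 (adjusted p = 0.321) by voom on recovered reads. It also lost its call without SPF aCD3 M2 (adjusted p = 0.0623) or M3 (adjusted p = 0.0513), and its adjusted p ran from 0.00177 to 0.334 over all alternatives.

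**Figure D2:**
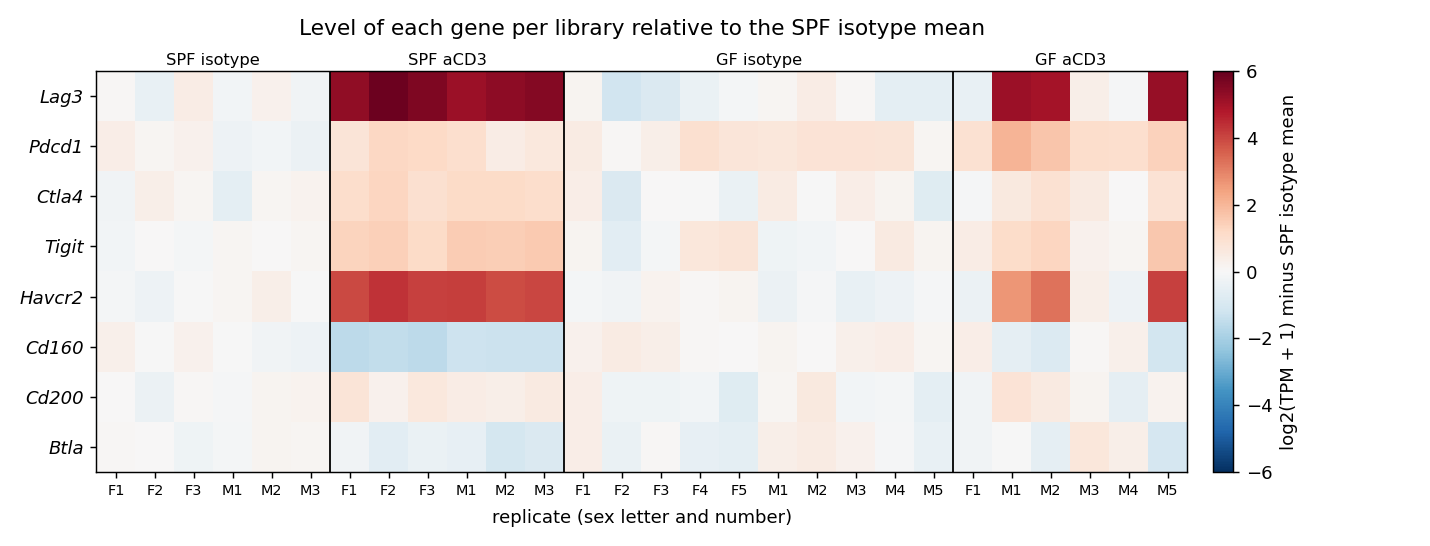
Colour gives log2(TPM + 1) of each gene (rows) in each library (columns, by group and replicate) minus the SPF isotype mean. Lag3 and Havcr2 are high in all 6 SPF aCD3 libraries and in GF aCD3 M1, M2 and M5, where Cd160 is low.

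Markers of other cells moved in the same comparison, and their counts stand beside 14.2% of all genes higher and 50.7% lower. Summed TPM of 9 regulatory T cell markers was 207.9 to 252.0 in SPF isotype and 333 to 409 in SPF aCD3, with 5 of 9 higher and 0 lower, and Foxp3 went from 23.8 ± 1.98 to 35.2 ± 7.18 TPM (adjusted p = 0.181). By the median of ratios 8 of 9 were higher, Foxp3 among them (log2 fold change 0.94, adjusted p = 0.0348). Regulatory T cells are known to carry Ctla4 and Tigit. The sort on CD4, CD90.2 and TCRb would remove the natural killer, B, plasma and myeloid cells whose markers follow. Natural killer and innate lymphoid markers, which mark cells that can carry Cd160, summed to 41.99 to 54.02 TPM in SPF isotype and 21.8 to 31.6 TPM in SPF aCD3, with 3 of the 6 tested lower. B and plasma cell markers, whose cells can carry Btla and Cd200, summed to 105.8 to 285.3 and 15.7 to 23.0 TPM, with 2 of 5 tested lower and Jchain from 169.0 to 0.792 TPM. Myeloid and dendritic markers, whose cells can carry Havcr2, summed to 12.3 to 22.7 and 61.9 to 110.4 TPM, with 1 of 5 tested higher and 1 lower, and Cd68 alone at a mean of 76.5 TPM in SPF aCD3. Stromal and endothelial markers summed to 15.0 to 50.8 and 3.00 to 6.04 TPM, with 4 of 4 tested lower. Epithelial markers summed to 7.44 to 17.8 and 5.09 to 10.1 TPM, with 1 of 7 tested lower. Erythroid markers summed to 2.29 to 10.2 and 0.716 to 1.28 TPM, with 0 of 1 tested called. CD8 T cell markers summed to 5.68 to 13.5 and 9.75 to 23.8 TPM, with Cd8b1 higher (adjusted p = 0.0139) and Cd8a at an adjusted p of 0.201. Mast cell and granulocyte markers summed to 96.5 TPM in SPF aCD3 F1, against 4.27 to 5.77 TPM in the other 5 SPF aCD3 libraries. The macrophage markers C1qa and C1qb were at 0 in every SPF aCD3 library. The part of these cells in the changes was not tested, and in sorted bulk RNA fewer cells of a type and less RNA per cell cannot be told apart.

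The second comparison asks the same of mice without a flora. In GF mice 3 of the 8 genes rose after aCD3 (Lag3, Pdcd1 and Havcr2), and 0 fell, where 7.08% of all genes passed the test, 2.46% higher and 4.61% lower. Higher calls were 34.8% of all calls on deposited TPM but 57.6% by the median of ratios and 54.6% by voom. The median of ratios called 4 of the 8 (Tigit added, log2 fold change 0.82, adjusted p = 0.043), and voom called Lag3, Pdcd1 and Tigit but not Havcr2 (adjusted p = 0.0693). On deposited TPM all 3 had an adjusted p of 0.0481, the smallest of any gene in this comparison. The treated libraries fell on both levels: 3 of the 6 held Lag3 near the SPF aCD3 level and 3 near the isotype level. For none of the 8 genes did GF aCD3 and GF isotype separate fully, which 0.0328% of all genes did upward and 0.0328% downward.

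Lag3 ran from 5.41 to 18.5 TPM (median 11.04) in GF isotype. The GF aCD3 libraries held 498.4 TPM in M1, 452.0 in M2 and 527.0 in M5, but 17.0 in M3, 12.3 in M4 and 9.59 in F1. The first 3 lay above every GF isotype library and the last 3 inside their range. The mean, 252.7 ± 264 TPM (n = 6), lies where no library does, and the log2 fold change was 2.64 (SE 0.68, adjusted p = 0.0481).

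Havcr2 ran from 0.392 to 1.18 TPM (median 0.750) in GF isotype. It stood at 30.8 TPM in GF aCD3 M5, 17.2 in M2 and 10.6 in M1, against 1.37 in M3, 0.521 in M4 and 0.462 in F1. Only M5 reached the range of SPF aCD3, and M3 lay just above the highest GF isotype library. The log2 fold change was 1.64 (SE 0.47, adjusted p = 0.0481).

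Pdcd1 was highest in the same 3 libraries, by a smaller margin. It ran from 9.93 to 19.5 TPM (median 16.1) in GF isotype and stood at 41.9 TPM in GF aCD3 M1, 32.4 in M2, 26.7 in M5, 20.5 in M3, 20.2 in M4 and 18.5 in F1. All 5 male libraries lay above every GF isotype library, M3 and M4 by less than 1 TPM. The mean was 1.78-fold higher (log2 fold change 0.79, SE 0.18, adjusted p = 0.0481).

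The other 5 genes did not pass the test in GF mice. Tigit stood at 99.1, 111.3 and 141.8 TPM in M1, M2 and M5 and at 49.7 to 63.0 TPM in the other 3, against 29.2 to 78.0 in GF isotype (log2 fold change 0.66, SE 0.21, adjusted p = 0.0517). Ctla4 stood at 749, 947, 747 and 918 TPM in M1, M2, M3 and M5 and at 509 and 477 in M4 and F1, against 281 to 706 (0.48, adjusted p = 0.088). The same 3 libraries thus led for Tigit, and M3 joined them for Ctla4. Cd160 stood at 32.5, 27.1 and 22.1 TPM in M1, M2 and M5, below every GF isotype library (48.4 to 67.6 TPM), and at 50.4 to 63.2 in the others (-0.45, SE 0.17, adjusted p = 0.0708). Cd200 (0.23, adjusted p = 0.377) and Btla (-0.11, adjusted p = 0.734) had 1 and 2 libraries outside the GF isotype range: M1 for Cd200 at 4.39 TPM, and M3 at 21.4 and M5 at 6.01 TPM for Btla.

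The 3 calls in GF mice were lost in a fit on the GF groups alone (adjusted p = 0.249 for each) and when any of 25 single libraries was left out, and they held without GF aCD3 F1, M3 or M4. Over all alternatives the adjusted p of Lag3 ran from 0.00276 to 0.734, that of Havcr2 from 0.00276 to 0.737 and that of Pdcd1 from 0.0039 to 0.734, with log2 fold changes above 0 throughout. S numbers of the GF libraries fall in 2 runs, 25 to 33 and 48 to 54. Within them the log2 fold change was 3.28 and 1.81 for Lag3, 2.37 and 1.07 for Havcr2, and 0.79 and 0.48 for Pdcd1. In each run 1 gene of all 12182 was called, and 0 of the 8.

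Beside the GF values, the libraries M1, M2 and M5 also held the highest histone shares given above and the highest sums of the 9 regulatory T cell markers, 504.6, 530.9 and 443.9 TPM, against 231.6 in F1, 320.4 in M3 and 236.5 in M4 and 197.3 to 351.1 in GF isotype. Of these 9 markers 0 passed the test in GF mice. Myeloid and dendritic markers were also highest in M1, M2 and M5, at 64.7 to 71.7 TPM against 35.0 to 42.8 in F1, M3 and M4, with 0 of 5 tested called. Sums were lower in M1, M2 and M5 for stromal and endothelial markers (3.65 to 5.01 against 9.63 to 12.2 TPM), epithelial markers (5.98 to 8.66 against 10.8 to 30.0 TPM) and B and plasma cell markers (17.3 to 24.2 against 30.4 to 111.8 TPM). Sums were higher in M1, M2 and M5 for CD8 markers (9.59 to 13.0 against 3.47 to 7.56 TPM) and mast cell and granulocyte markers (2.84 to 13.4 against 1.03 to 1.15 TPM). Of all marker genes tested, Klrb1c and Thy1 (adjusted p = 0.0481 for each) and the epithelial Cdh1 and Lgals4 (0.0484 for each) were called lower in GF aCD3, and Kit (0.0484) and the acinar Sycn (0.0488) higher. Pancreatic acinar markers, of a tissue next to the gut, summed to 586.1 TPM in M3 and 119.4 TPM in F1, against 2.17 to 40.6 TPM in the other 4. The part of these differences between libraries in the results was not tested.

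**Figure D3:**
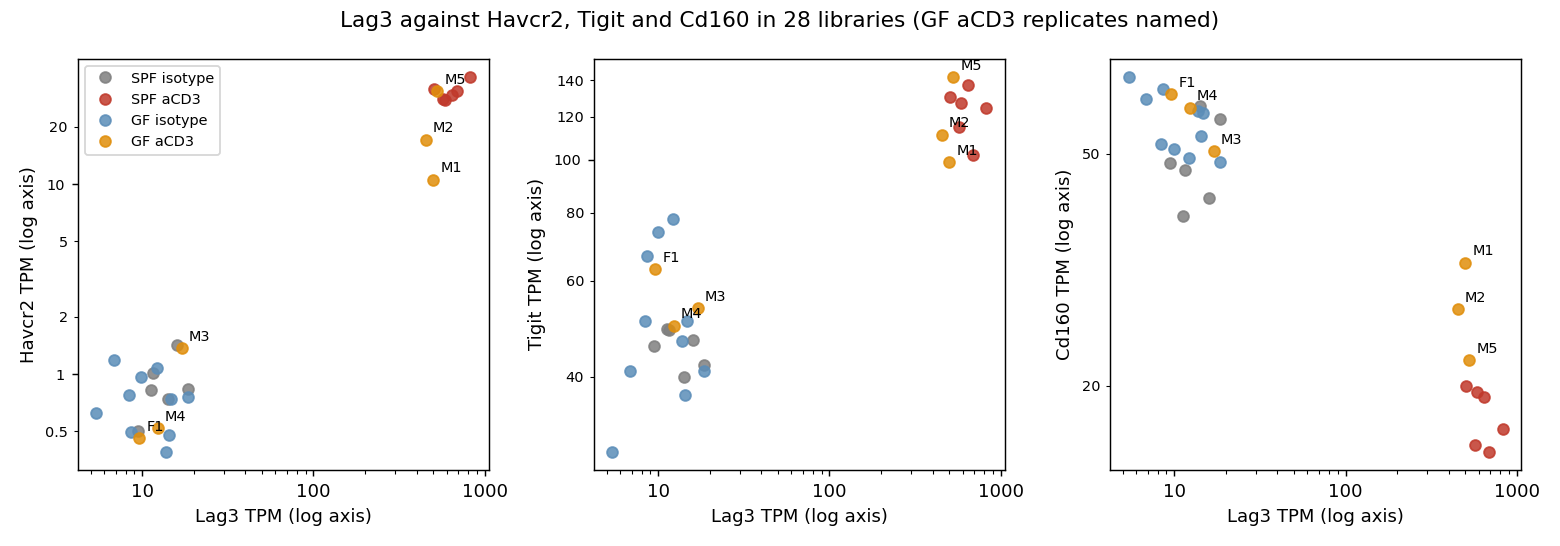
Lag3 TPM (horizontal log axis) against Havcr2, Tigit and Cd160 TPM (vertical log axes) in the 28 libraries, coloured by group, with GF aCD3 replicates named. GF aCD3 M1, M2 and M5 lie near the SPF aCD3 libraries, with Lag3 from 452.0 to 527.0 TPM, and F1, M3 and M4 lie among the isotype libraries.

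The third comparison asks whether the resting levels depend on the flora. In isotype-treated mice only Pdcd1 differed among the 8 genes, where 7.17% of all genes passed the test, 6.42% higher and 0.755% lower in GF. This split turned with the scaling, from 89.5% of calls higher to 33.3% by the median of ratios and 26.7% by voom. Pdcd1 stood at 15.0 ± 3.29 TPM (n = 10) in GF and 9.67 ± 2.23 TPM (n = 6) in SPF, a log2 fold change of 0.58 (SE 0.17, adjusted p = 0.0399) against a median of 0.15 over all genes. The ranges overlapped, from 9.93 to 19.5 TPM and from 7.30 to 12.7 TPM. This call was lost by the median of ratios (log2 fold change 0.43, adjusted p = 0.374), by voom (adjusted p = 0.41) and without any of 11 single libraries, and the adjusted p ran from 0.00941 to 0.41 over the alternatives. The other 7 genes had log2 fold changes between -0.29 (Lag3) and 0.21 (Cd160), with adjusted p of 0.425 or more. Markers of other cells differed between these groups: stromal and endothelial markers summed to 15.0 to 50.8 TPM in SPF and 7.71 to 14.2 TPM in GF (3 of 4 tested lower in GF), B and plasma cell markers had medians of 190.4 and 44.0 TPM (1 of 5 lower), natural killer and innate lymphoid markers 49.1 and 40.5 TPM (3 of 6 lower), and myeloid and dendritic markers 17.8 and 38.2 TPM (0 of 5 called). Their part in the Pdcd1 difference was not tested.

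The fourth comparison sets the treated groups of both kinds of mice side by side. Of the 8 genes, 4 were lower and 2 higher in GF aCD3 than in SPF aCD3, where 53.3% of all genes passed the test, 48.9% higher and 4.46% lower. Of the calls 91.6% were higher on deposited TPM, 48.1% by the median of ratios and 47.9% by voom, and both of these called 5 of the 8 lower and 1 higher. Lag3 (log2 fold change -3.12, SE 0.76, adjusted p = 0.00211) and Havcr2 (-2.55, SE 0.52, adjusted p = 0.000735) had the largest differences, and ranked 5 and 14 from the lowest of 12182 genes. GF aCD3 M1, M2 and M5 held 452.0 to 527.0 TPM of Lag3 against 505.0 to 825 in SPF aCD3, while F1, M3 and M4 stood at 9.59 to 17.0 TPM. Ctla4 (-0.68, adjusted p = 0.0123) and Tigit (-0.64, adjusted p = 0.0232) were lower by less. Cd160 was higher, at 42.6 ± 17.6 against 17.8 ± 1.98 TPM (1.16, SE 0.19, adjusted p = 0.000182), with ranges of 22.1 to 63.2 and 15.4 to 20.0 TPM. Lag3, Havcr2 and Cd160 kept these calls under all 39 alternatives at the same threshold. Markers of other cells also differed between SPF aCD3 and GF aCD3. Median sums were 2.39 and 37.4 TPM for pancreatic acinar markers (8 of 9 tested higher in GF). They were 84.0 and 53.7 TPM for myeloid and dendritic markers (2 of 5 higher, 1 lower), and 18.8 and 27.3 TPM for B and plasma cell markers (1 of 5 higher). Their part in these differences was not tested.

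Pdcd1 was higher in GF aCD3 on deposited TPM (0.48, adjusted p = 0.0446), at 26.7 ± 9.05 against 18.8 ± 4.15 TPM, but not by the median of ratios (0.09, adjusted p = 0.798). Its adjusted p ran from 0.0204 to 0.926 over the alternatives, and the call was lost without any of 8 single libraries. Tigit kept its call in 35 of 39 alternatives and lost it without GF aCD3 F1, M3 or M4 (adjusted p 0.0671 to 0.0743) and with array weights (0.131). Ctla4 kept it in 36 of 39 and lost it without F1 (0.06), with array weights (0.0945) and with the replicate block (0.0737), under which Btla was called (0.57, adjusted p = 0.034). Cd200 (-0.39, adjusted p = 0.114) and Btla (0.47, adjusted p = 0.0941) did not pass. Cd200 was called lower by the median of ratios (-0.69, adjusted p = 0.0248) and by voom (-1.01, adjusted p = 0.0123), where Pdcd1 was not called.

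The difference between the aCD3 effects of GF and SPF mice was tested as an interaction. It passed for Havcr2 (-2.43, SE 0.69, adjusted p = 0.048) and Cd160 (0.95, SE 0.25, adjusted p = 0.0377). On average over the GF aCD3 libraries, the rise of Havcr2 and the fall of Cd160 were thus both smaller than in SPF mice. These libraries fell on both levels. M1, M2 and M5 held 10.6 to 30.8 TPM of Havcr2 and 22.1 to 32.5 TPM of Cd160. F1, M3 and M4 stood at 0.462 to 1.37 and 50.4 to 63.2 TPM. Of all genes 3.48% passed, 2.44% higher and 1.04% lower, a split that moved from 70% of calls higher to 43.9% by the median of ratios and 50.8% by voom. For Lag3 the difference was larger (-2.83) but so was its error (SE 1.00, adjusted p = 0.0752). Tigit (-0.76, adjusted p = 0.1), Ctla4 (-0.62, adjusted p = 0.144), Btla (0.51, adjusted p = 0.253), Cd200 (-0.28, adjusted p = 0.492) and Pdcd1 (-0.10, SE 0.26, adjusted p = 0.809) did not pass. The call of Havcr2 was lost in 24 of 28 fits that left out a library and that of Cd160 in 13 of 28, with adjusted p from 0.00341 to 0.152 and from 0.00341 to 0.125 over the alternatives. Both calls were lost when GF aCD3 F1, M3 or M4 was left out. They were also lost without a filter, with array weights and with the replicate block.

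**Figure D4:**
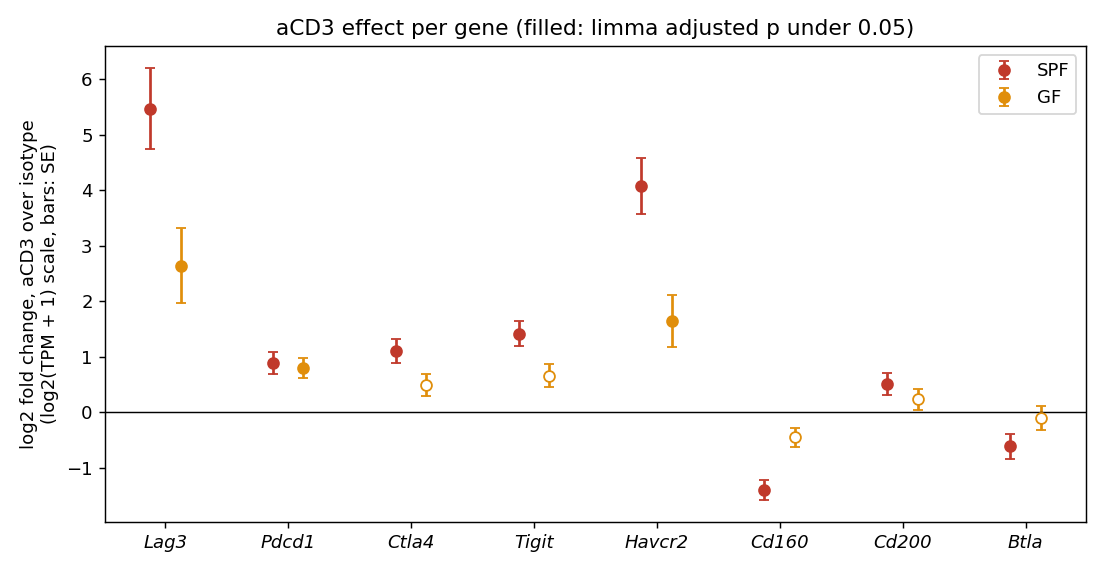
Log2 fold change of aCD3 over isotype on the log2(TPM + 1) scale for each gene, with bars for the SE, in SPF (red) and GF (orange) mice. Filled points passed a limma adjusted p under 0.05, which 8 of 8 genes did in SPF and 3 of 8 in GF mice.

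Between males and females, with group as a term, 0 of the 8 genes passed, with log2 fold changes from -0.15 for Cd160 to 0.53 for Lag3 and an adjusted p of 1 for each. Over all genes limma called 13 (0.107%; 0.0328% higher and 0.0739% lower in males), and 544 had an unadjusted p under 0.05, none of them one of the 8, whose lowest unadjusted p was 0.251. Since GF aCD3 holds 1 female library, the sex term and that library bear on each other: without it the value of Lag3 was 0.07.

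Genes nearest to each receptor were found by the root mean square difference of standardised log2(TPM + 1) over the 28 libraries, leaving out unnamed gene models and genes under 5 TPM in every group. The 8 nearest to Lag3 were Tnip3, an inhibitor of NF-kB signalling (0.176), Ptms, the gene of parathymosin (0.179), Havcr2 (0.196), Serpine2 (0.225), Neb (0.232), Twsg1 (0.232), Mcm7, a subunit of the replicative helicase (0.235), and the histone gene Hist1h2bc (0.237). Among 12181 other genes the receptors ranked 3 (Havcr2), 340 (Tigit), 515 (Ctla4), 879 (Cd200), 1238 (Pdcd1), 5878 (Btla) and 11455 (Cd160) in likeness to Lag3. Havcr2 alone of them thus lay among the nearest genes, and by the median of ratios it ranked 14 of 12181. Of the 8 names 3 were kept by the median of ratios. Tnip3, Havcr2, Serpine2 and Neb reached a mean of 5 TPM only in an aCD3 group, with SPF isotype means of 0.172 to 1.33 TPM. Such genes could be named only where they were high, so their nearness to Lag3 rests partly on that rule.

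For the other receptors the nearest were Il10, the gene of the anti-inflammatory cytokine interleukin-10, and Gpr146 for Ctla4 (0.394 and 0.414), Lamp2 and the T cell cytokine gene Il21 for Pdcd1 (0.474 and 0.493), and Gcnt1 and Ehd1 for Tigit (0.314 and 0.362). For Havcr2 they were Serpine2 and Tnip3 (0.153 and 0.172), and for Cd160 Tprgl and Ptger4, a prostaglandin E2 receptor (0.242 and 0.247). Cd200 (Ddias 0.546, Epop 0.555) had the most distant neighbours, followed by Pdcd1, while those of Btla (Fbxo30 0.408, Rab11fip1 0.449) lay about as far as those of Ctla4. All of these were more distant than the neighbours of Lag3, Havcr2 or Cd160. Il10 rose from a mean of 92.3 to 653.8 TPM in SPF mice (log2 fold change 2.81, adjusted p = 4.64e-06). In GF mice it did not pass (1.11, adjusted p = 0.0537), and GF aCD3 held 403.5 to 630.0 TPM in M1, M2 and M5 and 93.5 to 140.7 TPM in F1, M3 and M4, against a GF isotype mean of 114.1 TPM.

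The partners of these receptors were read from lists chosen with earlier results known. In SPF mice 2 of 13 tested ligand genes rose and 9 fell after aCD3 (4 and 7 by the median of ratios), among genes of which 14.2% rose and 50.7% fell. Their median log2 fold change was -0.77, against -0.35 over all genes. Lgals3, the gene of the LAG-3 ligand galectin-3, rose from 4.07 ± 0.824 to 10.7 ± 6.64 TPM (adjusted p = 0.000347), and Hmgb1, a TIM-3 ligand, from 108.5 to 125.9 TPM (adjusted p = 0.0314). Cd274, the gene of PD-L1, fell from 26.3 ± 3.63 to 13.7 ± 1.73 TPM (adjusted p = 7.73e-05), Pvr, of the TIGIT ligand, from 10.7 to 4.80 TPM (adjusted p = 0.000181), and Cd200r1, of the CD200 receptor, from 7.17 to 3.75 TPM (adjusted p = 0.000535). These are levels in the sorted T cells, and ligands on other cells were not sampled. In GF mice 0 of 13 rose and 3 fell, where 2.46% of all genes rose and 4.61% fell.

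Of 14 other inhibitory receptors tested, 0 rose and 9 fell in SPF mice (3 and 7 by the median of ratios), with a median log2 fold change of -0.64. Over all genes 14.2% rose and 50.7% fell, with a median of -0.35. Klrb1c, the gene of NK1.1, stands in this list although it is known as an activating receptor, and is also one of the natural killer markers above. It fell from 21.5 ± 3.98 to 2.55 ± 0.618 TPM (adjusted p = 7.4e-06). Cd96, which shares the poliovirus receptor with TIGIT, fell from 30.9 ± 4.00 to 9.15 ± 1.57 TPM (adjusted p = 4.92e-06), and Pecam1 from 9.52 to 3.35 TPM (adjusted p = 7.54e-06). None of the named 3 turned direction by the median of ratios. In GF mice 0 rose and 2 fell, Klrb1c among them (log2 fold change -1.31, adjusted p = 0.0481), beside 2.46% and 4.61% of all genes.

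The stimulatory receptors and their partners went both ways, with 6 of 12 higher and 4 lower in SPF mice (7 and 3 by the median of ratios). Over all genes 14.2% were higher and 50.7% lower, and by the median of ratios 3744 and 3539 of 12140. The median log2 fold change of the list was 0.21, against -0.35 over all genes. Tnfrsf4, the gene of OX40, rose from 66.9 ± 8.81 to 415.9 ± 53.7 TPM (log2 fold change 2.62, adjusted p = 6.25e-06), Cd27 from 29.5 to 116.5 TPM (1.93, adjusted p = 2.28e-05) and Tnfrsf9, of 4-1BB, from 8.99 to 28.4 TPM (1.55, adjusted p = 9.73e-05). Cd226, the stimulatory rival of Tigit, fell from 57.3 ± 9.12 to 7.24 ± 0.512 TPM (-2.81, adjusted p = 3.85e-07) as Tigit rose. Tnfsf14, the gene of LIGHT, which binds HVEM as BTLA and CD160 do, fell from 47.7 ± 9.81 to 4.52 ± 1.26 TPM (-3.15, adjusted p = 2.96e-07). Cd40lg fell from 222.2 to 29.2 TPM (-2.88, adjusted p = 2.59e-06). In GF mice 1 rose (Tnfrsf9, 0.91, adjusted p = 0.0493) and 1 fell (Cd40lg, -1.18, adjusted p = 0.0484), beside 2.46% and 4.61% of all genes.

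Signalling partners and transcription factors depended on the scaling. Of 24 signalling genes 1 rose and 12 fell on deposited TPM, but 12 rose and 6 fell by the median of ratios, so no direction is given for the list. Dgkz, a diacylglycerol kinase, rose from 23.8 to 38.4 TPM (0.66, adjusted p = 0.000241) and Trat1 fell from 68.6 to 8.17 TPM (-2.92, adjusted p = 4.13e-06), in the same direction under both scalings. The kinase gene Fyn (-1.10, adjusted p = 1.24e-05) and the phosphatase gene Ptpn22 (-1.04, adjusted p = 7.86e-05) were lower under both as well. Of 26 transcription factors 6 rose and 11 fell (10 and 5 by the median of ratios), beside 14.2% and 50.7% of all genes. Hif1a (1.09, adjusted p = 8.79e-06), Irf4 (0.68, adjusted p = 0.0199) and Rbpj (0.59, adjusted p = 0.0188) rose most, and Nr4a3 (-2.39, adjusted p = 6.77e-06), Tcf7 (-1.58, adjusted p = 0.000352) and Nfatc2 (-1.31, adjusted p = 3.1e-05) fell most among those at 5 TPM or more. Nr4a3, a gene that responds to T cell receptor signals, stood at 117.1 ± 33.8 TPM in SPF isotype and 20.8 ± 2.73 TPM in SPF aCD3. In GF mice 1 of 24 signalling genes rose and 0 of 26 transcription factors passed, where 2.46% of all genes rose and 4.61% fell.

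**Figure D5:**
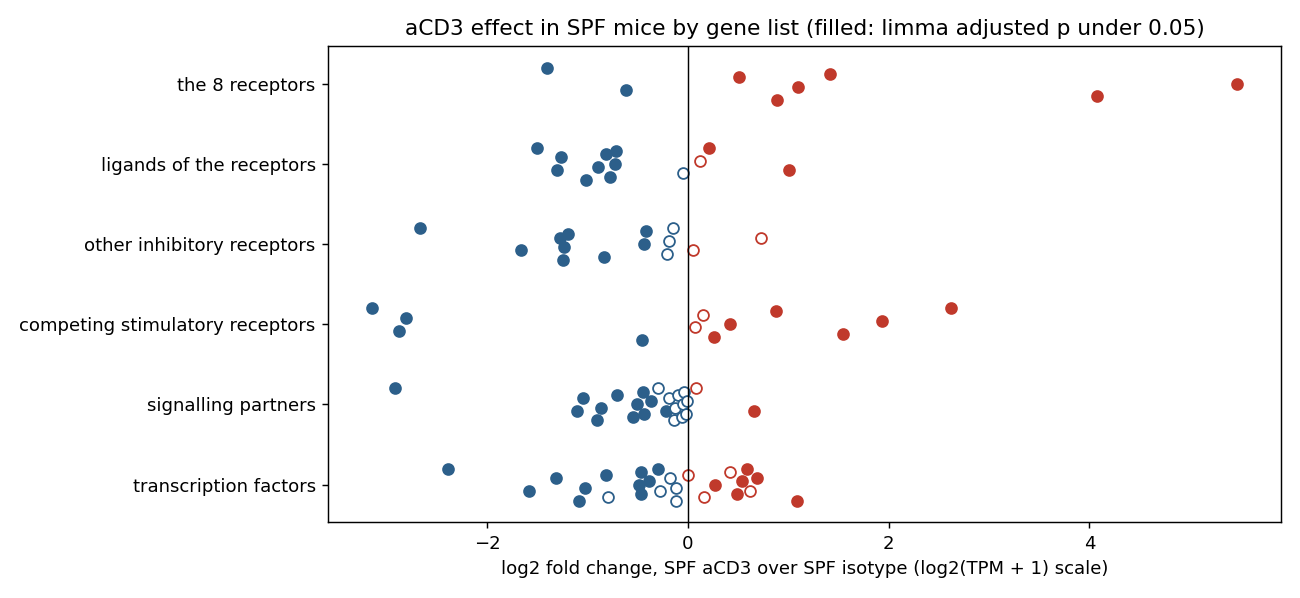
Log2 fold change of aCD3 over isotype in SPF mice on the log2(TPM + 1) scale (horizontal axis) for the 8 receptors and the tested genes of 5 lists (rows), filled where the limma adjusted p was under 0.05. Lag3 at 5.47 and Havcr2 at 4.08 lie to the right of every gene of the lists, of which Tnfrsf4 at 2.62 comes closest.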

How the data were processed

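RNA of sorted CD4+ T cells was sequenced in 28 libraries. Per the file headers, the authors computed the deposited TPM with HOMER's analyzeRepeats.pl over RefSeq transcripts of mm10, condensing the transcripts of a gene. The aligner's version, read filters and use of strand are not given in the sources used here. In 99.2% of rows the length column equals end minus start, so TPM is per genomic span with introns. The labels name both a total RNA kit and polyA RNA. A further 26 TPM columns match no sample and were not used.

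TPM times length gave whole multiples of a single step in 100.0% of low values (up to 100 reads, tolerance 0.02 reads), which gave each library's reads; 3 reads were worth at most 0.475 TPM for any of the 8 genes, counting error only. The filter kept genes that reached 1 TPM in 6 or more libraries, and log2(TPM + 1) was fitted with limma 3.58.1 in R 4.3.3 (4 group means and sex, 28 libraries, empirical Bayes with trend), with Benjamini-Hochberg adjustment over all 12182 genes and a threshold of 0.05. On simulated data of 12434 genes, 97.5% of 200 genes changed by 1.5 on the log2 scale in SPF aCD3 against SPF isotype were recovered. Limma voom on the recovered reads called 3656 genes higher and 3550 lower in that comparison.

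Alternatives were the pseudocount, the filter, scaling, voom, array weights, sex term, groups fitted, replicate block, runs of S numbers (in the library names of the header) and leaving out each library. The members and lists were chosen with earlier results of these data known. From each list the up to 3 highest and 3 lowest log2 fold changes past the threshold in SPF mice, at a mean of 5 TPM or more in either SPF group, are named; so are the 8 nearest genes to Lag3 and 2 to each other receptor. No 2 libraries held identical values. Figures were drawn with matplotlib 3.10.9.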

Additional observations from a re-analysis of the deposited data

Results flagged for a closer look

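The effect of aCD3 differed between GF and SPF mice for 2 of the 8 genes by a test of the difference itself, which 3.48% of all 12182 genes passed. For Havcr2 the GF effect was smaller by 2.43 on the log2 scale (GF minus SPF -2.434, limma adjusted p = 0.048), with GF effects of 1.64 and SPF effects of 4.08. For Cd160 the difference was 0.95 (adjusted p = 0.0377), with effects of -0.45 in GF and -1.40 in SPF mice. The call of Havcr2 was lost in 24 and that of Cd160 in 13 of 28 fits that left out a library, and 0 of the 8 genes passed without a filter, with array weights or with the replicate block. Havcr2 was above every isotype library of its own kind in 4 of 6 GF aCD3 and 6 of 6 SPF aCD3 libraries, and Cd160 below in 3 of 6 and 6 of 6. Of 32 sets of libraries (8 genes in 4 groups), 0 held a library that stood apart from the others by Dixon's test, where chance gives about 1.6. That test looks for a single extreme library and cannot flag a group that falls on 2 levels, as GF aCD3 does for Lag3 (452.0 to 527.0 TPM in M1, M2 and M5, 9.59 to 17.0 TPM in F1, M3 and M4).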

How the results depend on the processing

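In SPF mice the calls and directions of Lag3, Havcr2, Tigit, Ctla4, Pdcd1 and Cd160 held under all 40 alternatives at the same threshold. The count of 8 became 5 when a log2 fold change of at least 1 was also asked, 7 without a filter (Cd200 lost) and 7 by the median of ratios and by voom (Btla lost), and was 7 to 8 when each library was left out. For GF aCD3 against isotype the count of 3 became 0 with a pseudocount of 0.1, without a filter, in a fit on 2 groups, with the replicate block and within either run of S numbers, 5 with array weights and 6 without a sex term. With a pseudocount of 0.1 and without a filter 0 of all genes passed, and the log2 fold change of Lag3 was 2.71 (adjusted p = 0.0514) and 2.64 (0.0822). It was 0 to 6 when each library was left out. For GF against SPF isotype the count of 1 became 0 with a pseudocount of 5, without a filter, by the median of ratios, by voom, with the replicate block and at a log2 fold change of at least 1, and was 0 to 1 over left-out libraries. For GF against SPF aCD3 the count of 6 became 3 with array weights and 3 at a log2 fold change of at least 1, and was 4 to 6 over left-out libraries. For the difference of effects the count of 2 became 1 with a pseudocount of 0.1, 1 by voom, 1 at a log2 fold change of at least 1, and 0 without a filter, with array weights and with the replicate block, and was 0 to 4 over left-out libraries. The cause was not tested, except that a fit on 2 groups and single runs hold fewer libraries.

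Over all genes the calls ran, under alternatives on the same threshold, from 6242 to 8783 in SPF mice (7898 as reported), 0 to 3636 in GF mice (862), 198 to 2360 between the isotype groups (874), 3680 to 6539 between the aCD3 groups (6496) and 159 to 1824 for the difference of effects (424). At a log2 fold change of at least 1 they were 1940, 99, 49, 667 and 186.

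Signs turned only for differences that passed no test. Btla in GF aCD3 against isotype was 0.045 by the median of ratios, 0.005 without Rn45s and histone genes, 0.081 by voom and 0.092 in S numbers 48 to 54. In GF against SPF isotype, Tigit was -0.035 by the median of ratios, -0.042 by voom and -0.122 with the replicate block; Ctla4 was 0.015 with array weights and 0.024 with the block; Cd200 was 0.072 and Btla 0.173 with the block. Havcr2 between the sexes was -0.004 with array weights. Over left-out libraries the lowest and highest values were -0.258 and 0.062 for Btla in GF aCD3 against isotype, -0.097 and 0.017 for Btla and -0.202 and 0.025 for Ctla4 in GF against SPF isotype, -0.236 and 0.047 for Pdcd1 in the difference of effects, and -0.069 and 0.313 for Havcr2 between the sexes. Of the single values, 498 of 578 under other settings and 1180 of 1344 over left-out libraries kept their direction and side of the threshold.

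Replicate names did not pair the libraries: deviations of same-named libraries correlated at -0.031 to 0.103 in SPF (1 of 6 over 0.1, 2 of 6 best with their own name) and -0.208 to 0.198 in GF mice (3 of 6 over 0.1, 1 of 6 best). With the replicate block 8, 0, 0, 5 and 0 of the genes passed in the 5 comparisons in the order above, and the block left 7794, 0, 658, 5715 and 162 genes overall against 7898, 862, 874, 6496 and 424. Depth limited Havcr2 and Cd200 most, with as few as 18 and 34 reads in a library.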

Other observations

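The rows around Lag3 on chromosome 6 were read after Ptms had been seen among its nearest genes. Lag3 (chr6:124904359-124911705, minus strand, mm10) has Ptms, the gene of parathymosin, 1970 bases away on the same strand. Ptms stood at 32.7 ± 5.19 TPM in SPF isotype and 248.3 ± 37.0 TPM in SPF aCD3 (n = 6 each; log2 fold change 2.89, SE 0.44, limma adjusted p = 1.09e-05). In GF aCD3 it stood at 269.0 TPM in M1, 267.4 in M2 and 222.7 in M5, and at 39.7 in M3, 30.7 in M4 and 26.9 in F1, the libraries that were high and low for Lag3. A230083G16Rik, on the opposite strand and overlapping Ptms, went from 1.24 ± 0.774 to 15.4 ± 3.42 TPM in SPF mice (2.93, SE 0.43, adjusted p = 8.04e-06); the use of strand in counting is not given, so reads of this pair cannot be told apart.

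Cd4, on the other side of Lag3 at 16159 bases, stood at 206.3 ± 23.3 and 220.0 ± 12.3 TPM in the same groups (0.10, SE 0.08, adjusted p = 0.294). By the median of ratios its log2 fold change was 0.52 (adjusted p = 1.43e-05), against 5.89 for Lag3 and 3.31 for Ptms. Mlf2, 19683 bases away, had 0.30 (adjusted p = 0.0192; 0.71 and 9.19e-05 by the median of ratios) and Cops7a, 47102 bases away, -0.15 (adjusted p = 0.147; 0.23 and 0.0682). Gpr162, 40376 bases away and at 0.872 and 1.30 TPM, had 0.29 (adjusted p = 0.224; 0.53 and 0.0334), and in GF mice 0.66 (adjusted p = 0.0481).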
